A study of Mus musculus with 20 samples.

Results

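The neuronal cytoskeleton and axon growth genes described here were 10 of the 24411 genes in the 2 deposited tables: Nefl, Nefm, Nefh, Ina, Prph, Tubb3, Map2, Stmn2, Gap43 and Dcx. They were chosen by name, as neurofilament, tubulin and axon growth genes, and all 10 were found in both tables. Bulk mRNA sequencing was done on the apical coil of the mouse cochlea, dissected with its sensory epithelium and spiral ganglion neurons (SGNs), at postnatal day 7 (P7), before hearing begins, and at P22, in the young adult. Bai1tm2b/+ mice were compared with Bai1tm2b/tm2b littermates, with 3 libraries of each genotype at P22 and 7 of each at P7, and each library was made from pooled tissue of 4 mice. The tm2b allele lacks exons 3 and 4 of Adgrb1, the gene for the adhesion receptor BAI1, and carries a lacZ cassette in their place, so that the heterozygous controls also had 1 mutant allele with its lacZ cassette. The deletion was present in the whole body from the embryo onwards, on a C57BL/6N background, and no wild-type library was analysed here. Nothing in the labels tied replicate numbers to litters, and p-values here measure the spread between pools.

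Neurofilaments are the main intermediate filaments of large myelinated axons, built from the light, medium and heavy subunits that Nefl, Nefm and Nefh encode, together with alpha-internexin (Ina) or peripherin (Prph). They fill the axon and set its calibre as the nerve matures. Growing axons instead carry a labile microtubule network and the growth cone proteins that remodel it, among them GAP-43, the stathmin family member Stmn2 and doublecortin (Dcx), whereas the class III beta-tubulin Tubb3 and the microtubule-associated protein Map2 mark neurons at all stages. In the cochlea neurofilaments belong to the SGNs, and peripherin is the filament protein by which the sparse type II SGNs are recognised.

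Promoter sequence is shown for 3 genes with different courses in these data: Ina, which was lower in homozygotes at P22, Tubb3, which rose with age, and Dcx, which was at a slightly lower level at P22 than at P7. RefSeq promoter entries (GRCm38.p6) were matched for 5 of the 10 genes. Each sequence is the 250 bases before the annotated start, 5′ to 3′ on the gene's strand, with capitals marking matches on either strand to 6 short motifs. The TATA box was searched as TATAAA, held by 12.4% of 32851 promoters of the same length, and in the looser form TATAA, which the first contains, held by 22.8%. The CCAAT box was searched by those letters and was held by 33.8%. The GC box was searched as GGGCGG and was held by 32.7%. One E-box was searched as CAGCTG and was held by 13% of promoters. The other E-box was searched as CACGTG and was held by 6.02%.
Ina, chr19:47014431-47014680, plus strand: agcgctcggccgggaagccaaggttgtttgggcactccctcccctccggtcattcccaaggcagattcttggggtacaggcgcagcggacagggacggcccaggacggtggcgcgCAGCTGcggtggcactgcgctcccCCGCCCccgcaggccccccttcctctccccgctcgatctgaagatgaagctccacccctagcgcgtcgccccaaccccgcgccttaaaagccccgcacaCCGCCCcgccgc
Tubb3, chr8:123411303-123411552, plus strand: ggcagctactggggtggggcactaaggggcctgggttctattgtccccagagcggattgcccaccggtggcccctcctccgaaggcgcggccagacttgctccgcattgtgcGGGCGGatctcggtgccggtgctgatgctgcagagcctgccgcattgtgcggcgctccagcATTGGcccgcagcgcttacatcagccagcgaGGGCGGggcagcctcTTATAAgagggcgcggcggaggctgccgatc
Dcx, chrX:143933220-143933469, minus strand: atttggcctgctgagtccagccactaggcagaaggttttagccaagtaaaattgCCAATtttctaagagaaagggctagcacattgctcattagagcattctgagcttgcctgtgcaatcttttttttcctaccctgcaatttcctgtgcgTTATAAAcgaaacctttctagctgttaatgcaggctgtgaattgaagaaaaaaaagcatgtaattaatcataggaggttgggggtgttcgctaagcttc

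The Ina window is rich in G and C (70.8%) and holds 2 GC boxes, 1 E-box and no TATA box. The Tubb3 window (68% G and C) holds 2 GC boxes, 1 CCAAT box on the reverse strand and a palindrome that counts as the looser TATA form on each strand. The Dcx window has 41.6% G and C, with 1 TATA box, 1 CCAAT box and no GC box. A second RefSeq entry for Dcx, at chrX:143933125-143933374, has 44.8% G and C, the same TATA box and no CCAAT box. A match describes these letters alone and says nothing about binding.

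The P22 table and replicates 5 to 7 of each genotype at P7 held estimated counts, with 35726000 to 40350400 counts per library at P22 and 31108600 to 58807200 at P7. Replicates 1 to 4 at P7 held whole-number TPM (a transcript level scaled for length and to a fixed library total), whose sequencing depth is unknown, so these 8 libraries were analysed apart. Levels in the count libraries are given as CPM, that is counts scaled by TMM to a common library total over the 12 count libraries. Adgrb1 was at 152 to 167 CPM in heterozygotes and 100 to 105 CPM in homozygotes at P22, and at 32.1 to 56.4 against 21.6 to 31.2 CPM in the P7 count libraries, with no overlap at either age. In the TPM libraries it was at 7 to 12 in heterozygotes and 9 to 12 in homozygotes, which overlapped, and because the counts cover the whole gene and not just the deleted exons they check the genotype only in part. Summed over 10 neuronal markers, each of them detected, the level at P22 was 7685 to 8513 CPM in heterozygotes and 5898 to 6632 CPM in homozygotes, a ratio of 0.773. An exact permutation test gave p = 0.1, the smallest that 3 libraries against 3 allow. In bulk tissue, fewer neurons and less RNA per neuron cannot be told apart.

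**Figure D1:**
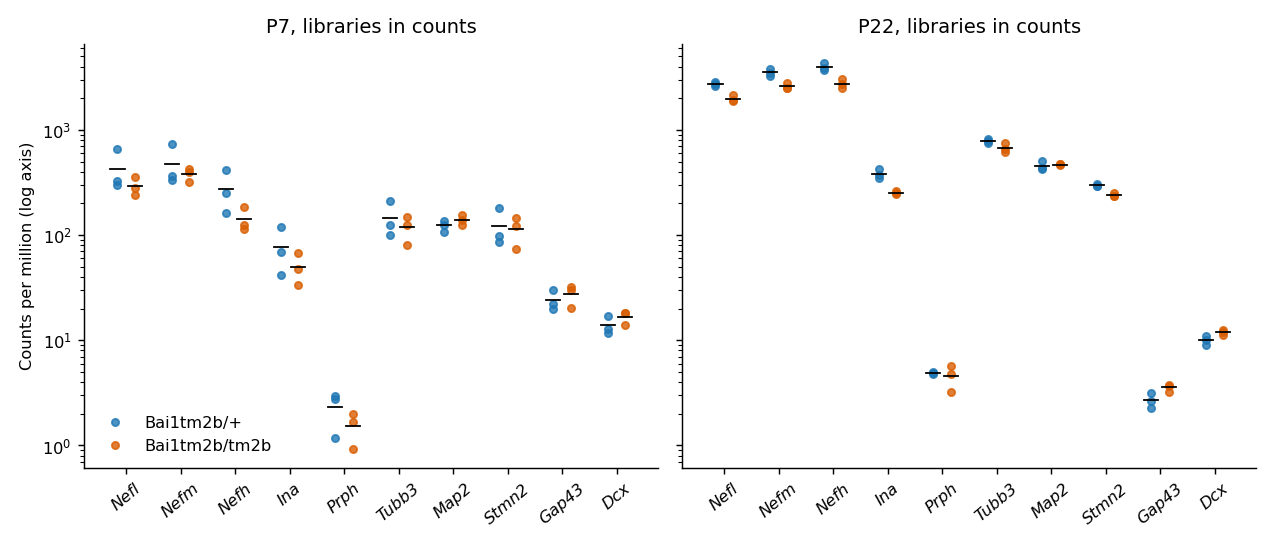
Level of the 10 genes in each library in counts (CPM, log axis) at P7 (left) and P22 (right), with Bai1tm2b/+ in blue and Bai1tm2b/tm2b in orange. Black bars are means of 3 libraries. The neurofilament genes sit at 115 to 737 CPM at P7 and at 1887 CPM or above at P22, whereas Gap43 sits at 19.8 to 31.9 CPM at P7 and 2.29 to 3.79 CPM at P22.

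At P22, 4 of the 5 filament genes (Nefl, Nefm, Nefh and Ina, not Prph) were lower by adjusted p in Bai1tm2b/tm2b mice, and 2 of them were called. A gene was called when its Benjamini-Hochberg adjusted p from edgeR's quasi-likelihood test was under 0.05, its log2 fold change passed 0.5 in either direction and the standard error (SE) of that change was under 0.5. Of the 10 genes, 2 were called lower (Nefh and Ina) and 0 higher, where 3.15% of the 15443 genes tested were called, 1.41% lower and 1.74% higher. By adjusted p alone 5 genes were lower, namely Nefl, Nefm, Nefh, Ina and Stmn2, against 7.28% of all genes. The median log2 fold change over the 10 genes was -0.26, and over all genes tested it was 0.01. Calls higher over all genes went from 269 to 108 without heterozygous replicate 1, 160.0 without heterozygous replicate 3 and 117 without homozygous replicate 2, and calls lower from 218 to 125 without heterozygous replicate 3.

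Nefh, the heavy subunit, was at 3909, 3751 and 4300.4 CPM in heterozygotes and 3046, 2523 and 2707 CPM in homozygotes. All 3 homozygous libraries were below all 3 heterozygous ones, with a log2 fold change of -0.52 (SE 0.0850, adjusted p = 0.00505). Its call was lost without heterozygous replicate 3 (-0.47) and without homozygous replicate 2 (-0.46), since the change then fell short of 0.5 at adjusted p-values still below 0.05.

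Ina, the alpha-internexin gene, was at 374, 350.3 and 425 CPM in heterozygotes and 262, 249 and 247 CPM in homozygotes. Its groups were wide apart, the log2 fold change was -0.59 (SE 0.0724, adjusted p = 0.00155), and it was called in each of the 6 fits that left out 1 library. Part of the Ina exons, 14.1% of their bases, lies opposite exons of Nt5c2 on the other strand, and the strand setting of the counting is not given in the sources used here.

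Nefl, the light subunit that the others need for assembly, was at 2703, 2607 and 2867 CPM in heterozygotes and 2126, 1887 and 1933 CPM in homozygotes. Nefm, the medium subunit, was at 3496, 3278 and 3809 CPM against 2807, 2509.6 and 2523 CPM. Both sets of groups were apart, with log2 fold changes of -0.45 for Nefl (SE 0.0703, adjusted p = 0.00460) and -0.43 for Nefm (SE 0.0775, adjusted p = 0.00782), short of the 0.5 needed for a call. Without homozygous replicate 1 the change of Nefl reached -0.50 and it was called. The 2 genes are neighbours on chromosome 14 (Nefl at chr14:68083863-68089095, Nefm at chr14:68082590-68124846 in GENCODE vM21) and their exons overlap on opposite strands, over 32.8% of the Nefl and 19.2% of the Nefm exon bases, so the split of reads between them is uncertain. Prph, the peripherin gene, was low, at 4.75 to 5.03 CPM in heterozygotes and 3.21 to 5.67 CPM in homozygotes. These overlapped, with a log2 fold change of -0.10 (SE 0.202, adjusted p = 0.779).

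Of the microtubule genes Tubb3, Map2 and Stmn2, 0 were called. Tubb3 was at 778, 751 and 824 CPM in heterozygotes and 744, 623 and 652 CPM in homozygotes. Its groups were narrowly apart, and the log2 fold change of -0.21 (SE 0.0737) did not pass the test (adjusted p = 0.0846). In the fits that left out 1 library, its adjusted p by edgeR ranged from 0.0266 to 0.217. Map2, whose product binds microtubules mainly in the soma and dendrites, was at 438, 425 and 510.4 CPM against 471, 461 and 475 CPM, which overlapped (log2 fold change 0.04, SE 0.0716, adjusted p = 0.751). Stmn2, which encodes a microtubule-destabilising protein of growing axons, was at 296, 290.1 and 308 CPM against 249, 234 and 237 CPM. The groups were apart, and the log2 fold change was -0.30 (SE 0.0541, adjusted p = 0.00737).

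The growth genes Gap43 and Dcx pointed the other way at P22 without passing the test. Gap43, encoding a growth cone membrane protein, was at 3.16, 2.64 and 2.29 CPM in heterozygotes and 3.69, 3.79 and 3.24 CPM in homozygotes. Dcx, a microtubule-binding protein of migrating and immature neurons, was at 10.1, 9.02 and 11.1 CPM against 11.2, 12.6 and 11.9 CPM. In both, all 3 homozygous libraries were above all 3 heterozygous ones, with a log2 fold change of 0.41 for Gap43 (SE 0.192, adjusted p = 0.186) and 0.25 for Dcx (SE 0.115, adjusted p = 0.183). Groups did not overlap for 8 of the 10 genes, and for 33.7% of all genes tested.

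Other cell markers moved with genotype at P22 as well. Libraries were also scaled so that the geometric mean of the 10 neuronal markers, not each marker or their sum, kept a constant level. The median of all genes then shifted to 0.25 and that of the 10 cytoskeleton and growth genes to -0.02. On that scale Nefh was at -0.29 (adjusted p = 0.00677), Ina at -0.35 (adjusted p = 0.00600), Nefl at -0.21 (adjusted p = 0.0149) and Nefm at -0.19 (adjusted p = 0.0237), none past 0.5. Gap43 was then called higher (0.65, adjusted p = 0.0438), while Dcx (0.50, adjusted p = 0.0211) and Map2 (0.28, adjusted p = 0.0127) were also higher by adjusted p, and Tubb3 was at 0.02 (adjusted p = 0.764). These values include the shift of 0.25, and on that scale 1613 of the 15443 genes (10.4%) were called, 96.3% of them higher, with 31.3% of all genes past the adjusted p in either direction, against 12.3% on the TMM scale. The summed levels of 10 hair cell markers and 10 central glia markers were 1.43 and 1.66 times as high in homozygotes (exact permutation p = 0.1 for each, the smallest possible), and that of 10 Schwann cell markers 1.10 times as high (exact permutation p = 0.3). The summed central glia markers ranged from 757 to 904 CPM in heterozygotes and from 1045 to 1697 CPM in homozygotes, with none of the 10 at 0, and the part of cell composition in the differences was not tested.

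Genes that work with these filaments were taken from 8 lists and counted in the TMM fit at P22. There 1.41% of all genes were called lower and 1.74% higher, and 7.28% were lower by adjusted p. In either direction 12.3% passed the adjusted p, and the median log2 fold change was 0.01. For genes whose longest coding transcript was above 6000 bases that median was -0.06. The part of transcript length in the lists was not tested. Of 13 axonal transport motor genes, 0 were called, 9 were lower by adjusted p and 13 had a negative log2 fold change, with a median of -0.30. Of 9 membrane skeleton and initial segment genes, 1 was called lower: Ank2, the axonal ankyrin-B gene, at 1213 ± 113 CPM in heterozygotes and 829 ± 22.9 CPM in homozygotes (SD, n = 3, log2 fold change -0.54, SE 0.0726, adjusted p = 0.00255). The other 8 were not called, 5 of them were lower by adjusted p, and the median over the list was -0.26. Of 12 tubulin isotypes 0 were called, and 1 was higher and 0 lower by adjusted p. Of 12 microtubule-associated proteins 1 was called higher (Map7, 0.51, adjusted p = 0.00851), while 4 were lower by adjusted p and 3 in all had a positive log2 fold change, with a median of -0.08. Of 7 relatives of stathmin and doublecortin 0 were called, with 1 higher and 2 lower by adjusted p. Of 17 growth cone proteins 3 were higher and 3 lower by adjusted p, and 1 was called higher, Marcksl1, a membrane-bound actin regulator, at 130.3 ± 5.46 CPM against 207 ± 7.51 CPM (log2 fold change 0.68, SE 0.0570, adjusted p = 0.000392). Of 10 other intermediate filaments 2 were higher and 1 lower by adjusted p, and 1 was called higher, the astrocyte and glial filament gene Gfap (0.79, SE 0.155, adjusted p = 0.0109). Of 9 axon regeneration genes 0 were called, with 2 higher and 0 lower by adjusted p.

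At P7 neither set of libraries gave a call among the 10 genes. In the libraries in counts 0 of 10 were called, as were 0 of 16026 genes tested (0%), with 1 of the 10 and 4.76% of all genes at an unadjusted p under 0.05. DESeq2 called 48 genes in all and 0 of the 10. The single gene was Nefh, at 163, 416 and 253 CPM in heterozygotes and 124, 115 and 184 CPM in homozygotes, with a log2 fold change of -0.95 (SE 0.332, adjusted p = 0.894 by edgeR). The groups overlapped because the lowest heterozygous library was below the highest homozygous one, and 1 heterozygous library, replicate 6, was far above the rest.

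That library was high for most of the genes. Nefl was at 297, 659 and 329 CPM in heterozygotes and 243, 279 and 355 CPM in homozygotes. Nefm was at 335, 737 and 363 CPM against 317, 394 and 429 CPM, and Ina at 41.3, 119 and 69.6 CPM against 33.4, 48.1 and 67.3 CPM. In each of these the middle heterozygous value, from replicate 6, was the highest of the 6 and the other heterozygous libraries lay within or near the homozygous range. The neuronal markers summed to 1495 CPM in replicate 6 and to 774 and 993 CPM in the other heterozygous libraries, against 600.1 to 1036 CPM in homozygotes. Without it the median over the 10 genes changed from -0.29 to 0.11, the log2 fold change of Nefl from -0.53 to -0.08, of Nefh from -0.95 to -0.54 and of Ina from -0.61 to -0.15. Nefm turned from -0.31 to 0.14, Tubb3 from -0.28 to 0.08 and Stmn2 from -0.08 to 0.31. The negative median in these P7 libraries thus rested on 1 pool.

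The remaining genes overlapped too. Tubb3 was at 101, 212 and 126 CPM against 81.0, 125 and 150.0 CPM, and Stmn2 at 86.6, 179.8 and 98.4 CPM against 73.8, 121 and 147 CPM. Gap43 was at 19.8, 30.0 and 22 CPM against 20.3, 31.9 and 30.0 CPM (log2 fold change 0.21, SE 0.200), and Dcx at 11.8, 17.1 and 12.7 CPM against 13.9, 18.1 and 18.3 CPM (0.29, SE 0.164). Map2 was at 108 to 137 CPM against 125 to 156 CPM, and Prph at 1.18 to 2.95 CPM against 0.922 to 2.01 CPM. Groups did not overlap for 0 of the 10 genes and for 10.7% of all genes. The summed markers of brain neurons were at 53.9 to 68.3 CPM in heterozygotes and 98.7 to 107.6 CPM in homozygotes (exact permutation p = 0.1, the smallest possible), and their part was not tested.

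In the rounded TPM libraries the neurofilament genes went the other way, and the 2 P7 sets were not tested against each other. Tests used limma on log2(TPM + 1) of the 11740 genes that averaged 5 TPM or more, a filter which 8 of the 10 genes passed and Prph and Dcx did not. Of the 8, 0 were called, where 0.801% of all genes were, 0.647% higher and 0.153% lower. All 8 had a positive log2 fold change, as did 52.6% of all genes, and 3 had an unadjusted p under 0.05 against 34.5% of all genes. These were Nefm, Nefh and Ina.

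Nefm was at 351, 491, 239 and 215 TPM in heterozygotes and 397, 515, 532 and 678 TPM in homozygotes. The groups overlapped through heterozygous replicate 2, and the log2 fold change was 0.65 (SE 0.219, adjusted p = 0.0746). Nefh was at 159, 172, 109 and 92 TPM against 127, 238, 258 and 217 TPM, and Ina at 73, 85, 51 and 50 TPM against 67, 122, 124 and 113 TPM. In both genes 3 homozygous libraries were above every heterozygous one and homozygous replicate 1 was not, with a log2 fold change of 0.54 for Nefh (SE 0.223, adjusted p = 0.118) and 0.59 for Ina (SE 0.199, adjusted p = 0.0733). Without homozygous replicate 1, 3 genes were called higher: Nefm (0.77, adjusted p = 0.0353), Nefh (0.75, adjusted p = 0.0188) and Ina (0.79, adjusted p = 0.0134). Calls over all genes then went from 76 higher and 18 lower to 263 and 69.

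The other genes in the TPM libraries differed by less. Nefl was at 538, 708, 402 and 366 TPM in heterozygotes and 543, 562, 628 and 750 TPM in homozygotes (log2 fold change 0.23, SE 0.166, adjusted p = 0.348). Tubb3 (0.23), Gap43 (0.21), Stmn2 (0.15) and Map2 (0.15) were likewise positive with overlapping groups, and adjusted p-values ran from 0.229 for Tubb3 to 0.502 for Stmn2. Prph was listed at 2 to 4 TPM in heterozygotes and 3 to 5 TPM in homozygotes, and Dcx at 3 to 4 and 4 to 6 TPM. At these levels 1 TPM is the rounding step, so no fold was given.

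Fold change in the TPM libraries followed transcript length across all genes. Spearman's rho between the length of a gene's longest coding transcript and its log2 fold change was 0.60 over 11164 genes, which are not independent replicates, and was -0.22 at P22 and 0.08 in the P7 count libraries. The median log2 fold change was -0.16 for transcripts up to 2000 bases and 0.20 for those above 6000 bases. Less the median of genes of like length, the change was 0.61 for Nefm, 0.55 for Ina, 0.50 for Nefh, 0.19 for Nefl, 0.39 for Tubb3, 0.37 for Gap43, 0.17 for Stmn2 and -0.05 for Map2. The summed neuronal markers were 1.13 times as high in homozygotes (1300 to 1833 TPM against 1459 to 1830 TPM, exact permutation p = 0.286). With the geometric mean of those markers held constant, the median of all genes shifted to -0.29 and that of the 8 genes to -0.09. The part of length and of neuronal content in these differences was not tested. Calls in this set were fragile. With limma, 0 of all genes were called without any 1 of replicates 2, 3 and 4 of either genotype, with the replicate block or with no filter on low values, where 2898 to 4390.0 genes had an unadjusted p under 0.05. With all libraries, the list genes called higher were the large microtubule-associated protein Map1b (0.70, adjusted p = 0.0437), the growth cone genes L1cam (0.89, adjusted p = 0.0437) and Dpysl5 (0.63, adjusted p = 0.0464), Ank2 (0.54, adjusted p = 0.0437), the dynein heavy chain Dync1h1 (0.62, adjusted p = 0.0437) and the intermediate filament gene Synm (0.67, adjusted p = 0.0437). Ank2 was thus called lower in homozygotes at P22 and higher in these P7 libraries, a difference that was not itself tested. The changes of these list genes were not set against those of genes of like length.

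**Figure D2:**
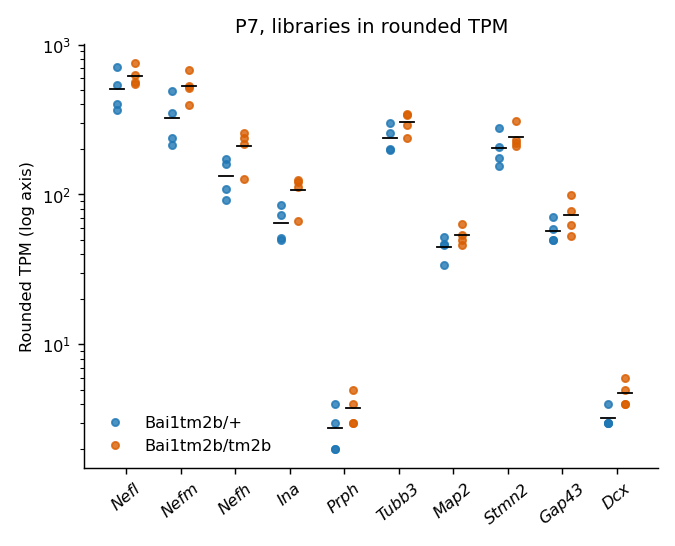
Level of the 10 genes in the 8 P7 libraries in rounded TPM (log axis), with Bai1tm2b/+ in blue, Bai1tm2b/tm2b in orange and black bars for means of 4 libraries. The groups overlap for every gene, where they did not for 14.8% of all genes tested, and the homozygous mean is the higher one in each.

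**Figure D3:**
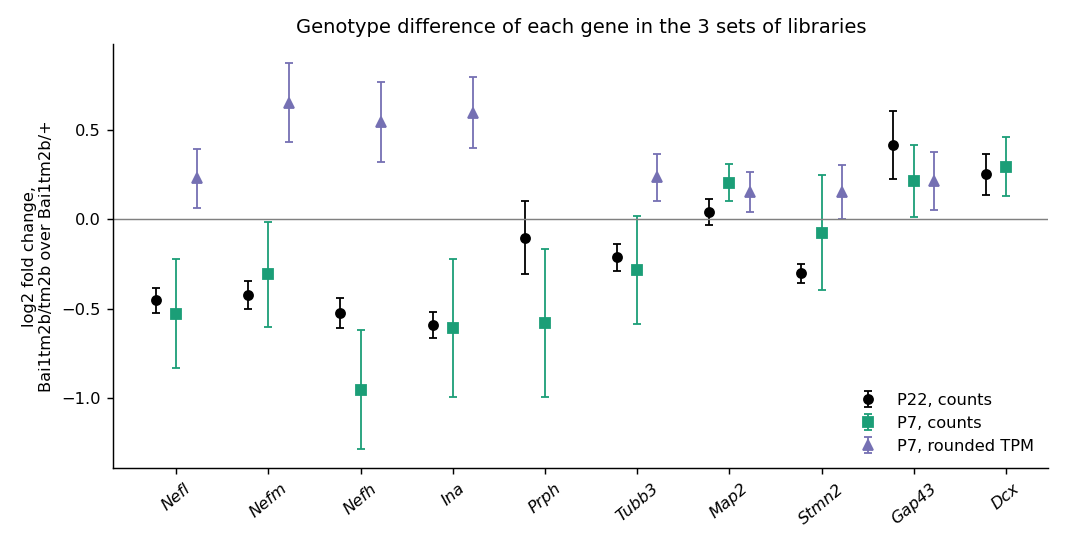
Log2 fold change of Bai1tm2b/tm2b over Bai1tm2b/+ for each gene at P22 (circles), in the P7 count libraries (squares) and in the P7 rounded TPM libraries (triangles, 8 genes), with bars of 1 SE. The 3 neurofilament genes and Ina are below 0 in both count sets and above 0 in the TPM set.

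Whether the genotype difference changed with age was tested within the count libraries as an interaction. Of the 10 genes 0 were called, where 0.0306% of 16314 genes were, and 0 of the 10 had an unadjusted p under 0.05 against 10.2% of all genes. DESeq2 called 119 genes in all and 0 of the 10. The log2 difference of the genotype effect, P22 minus P7, was 0.45 for Nefh (SE 0.383), 0.50 for Prph (SE 0.483), 0.22 for Gap43 (SE 0.286) and -0.21 for Stmn2 (SE 0.364), and it was between -0.15 and 0.09 for the other 6. With SEs of 0.152 to 0.483, differences of this size were not detectable. The genotype effect at P22 was therefore not shown to differ from that at P7 for any of the 10 genes.

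Most of the 10 genes differed in level between P7 and P22. In the count libraries 8 of the 10 genes were called higher at P22 and 1 lower, where 54.6% of 16314 genes were called, 25.9% higher and 28.7% lower. The median over the 10 genes was 2.07 and over all genes -0.05. Age, sequencing run and table cannot be told apart, as each age came from its own table. The count libraries of 9 genes did not overlap between ages, and neither did those of 62.6% of all genes.

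Nefh rose most of the 10, from 209 ± 113 CPM at P7 to 3373 ± 716 CPM at P22 (SD, n = 6), with a log2 fold change of 4.07 (SE 0.216, 16.8-fold, adjusted p = 2.34e-09). Of all genes, 1.72% had a larger absolute change. Nefm rose from 429 ± 156 to 3071 ± 539 CPM (log2 fold change 2.83, SE 0.183, adjusted p = 1.38e-08) and Nefl from 360.3 ± 152 to 2354 ± 424 CPM (2.72, SE 0.185, adjusted p = 2.26e-08). Ina rose from 63.1 ± 30.9 to 318 ± 75.4 CPM (2.33, SE 0.227, adjusted p = 6.93e-07). For each, the lowest P22 library was above the highest P7 library, replicate 6 included.

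Prph rose 2.50-fold, from 1.92 ± 0.83 to 4.72 ± 0.815 CPM (log2 fold change 1.32, SE 0.244, adjusted p = 0.000253), and remained the scarcest of the filament genes. Tubb3 rose from 132 ± 45.5 to 729 ± 76.6 CPM (2.46, SE 0.185, adjusted p = 5.64e-08) and Map2 from 132 ± 16.3 to 463 ± 29.9 CPM (1.82, SE 0.0782, adjusted p = 4.23e-10). Stmn2, although a gene of growing axons, also rose, from 118 ± 40 to 269 ± 32.6 CPM (1.19, SE 0.184, adjusted p = 5.84e-05).

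Gap43 fell by 3.04 on the log2 scale, from 25.7 ± 5.55 CPM at P7 to 3.13 ± 0.585 CPM at P22 (SE 0.148, 8.25-fold, adjusted p = 1.09e-09). Its P7 libraries lay between 19.8 and 31.9 CPM and its P22 libraries between 2.29 and 3.79 CPM. Dcx was at 15.3 ± 2.87 CPM at P7 and 11 ± 1.29 CPM at P22, and was lower by adjusted p (log2 fold change -0.48, SE 0.108, adjusted p = 0.00118) without reaching 0.5. Its libraries overlapped between ages. It was called lower in 4 of the 12 fits without 1 library (down to -0.54) and in the homozygous libraries alone (-0.51, adjusted p = 0.00604).

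**Figure D4:**
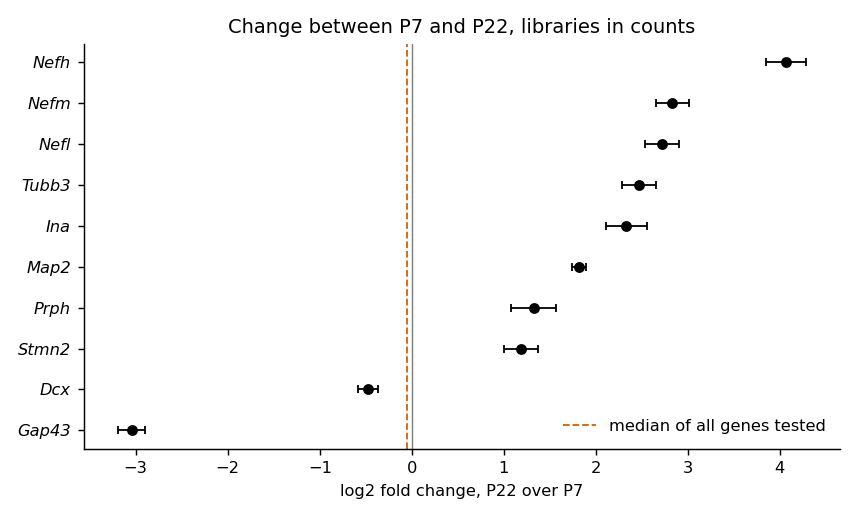
Log2 fold change of P22 over P7 for each gene in the 12 count libraries, with bars of 1 SE and a dashed line at the median of all genes tested. Nefh is at 4.07 and Gap43 at -3.04, with 7 further genes above 1 and Dcx at -0.48.

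The neuronal markers as a class rose as well. All 10 neuronal markers were called higher at P22, at a median of 2.79 on the log2 scale, and their sum ranged over 600.1 to 1495 CPM at P7 and over 5898 to 8513 CPM at P22. With the geometric mean of these markers held constant, the median of all genes moved to -2.75. On that scale 91.5% of the 16314 genes were called, 1.20% of those calls higher. Of the 10 genes 1 was then called higher, Nefh (1.45, SE 0.159, adjusted p = 1.14e-09). Nefl (0.10, adjusted p = 0.539) and Nefm (0.21, adjusted p = 0.187) did not pass the test on that scale, nor did Tubb3 (-0.15, adjusted p = 0.338) and Ina (-0.25, adjusted p = 0.125). Map2 (-0.87), Prph (-1.29), Stmn2 (-1.42), Dcx (-3.14) and Gap43 (-5.69) were called lower, each at an adjusted p of 4.85e-05 or below. Of these, Map2, Prph and Stmn2 were above the shifted median of all genes and Dcx and Gap43 below it. On the TMM scale 6 of 6 bone markers and 7 of 10 hair cell markers were called lower and 7 of 10 Schwann cell markers higher. Over all genes 28.7% were called lower and 25.9% higher on the TMM scale. The part of tissue composition in the shift was not tested.

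Per length of transcript, the order of the genes changed with age. At P22 Nefh (844 ± 179 CPM per kb) and Nefm (834 ± 147) were level, followed by Nefl (696 ± 125), whose range overlapped that of Nefm although Nefm was above Nefl in all 6 libraries. Tubb3 (390.1 ± 41) stood clear of its neighbours on both sides, then came Stmn2 (129.9 ± 15.7), Ina (98.1 ± 23.3) and Map2 (74.1 ± 4.78), each overlapping the next. Prph (2.53 ± 0.437) and Gap43 (2.21 ± 0.412) overlapped as well, and Dcx was lowest (1.21 ± 0.142). At P7 the order was Nefm (117 ± 42.4), Nefl (107 ± 44.8), Tubb3 (70.8 ± 24.4), Stmn2 (56.8 ± 19.3) and Nefh (52.3 ± 28.2), each overlapping the next, then Map2 (21.1 ± 2.60), Ina (19.5 ± 9.54) and Gap43 (18.1 ± 3.91), which overlapped, and last Dcx (1.69 ± 0.317) and Prph (1.03 ± 0.445). In the P7 TPM libraries the same 5 genes led, with Nefl first.

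The makeup of the filament pool, taken as shares of the summed per-length level of Nefl, Nefm, Nefh, Ina and Prph, does not depend on how libraries are scaled. The share of Nefh was 17.2% ± 3.50 at P7 in counts (SD, n = 6), 13.6% ± 2.07 at P7 in TPM (n = 8) and 34.0% ± 0.886 at P22 (n = 6). Every P22 library, from 32.4% to 34.8%, was above every P7 library, the highest of which was at 22.5%. Nefl fell from 36.0% ± 1.09 in the P7 count libraries to 28.2% ± 0.424, and Ina from 6.43% ± 0.968 to 3.94% ± 0.216. In the P7 TPM libraries Nefl was at 45.9% ± 4.45 and Ina at 6.79% ± 0.965. The Nefl share was thus higher in TPM than in counts at the same age. The part of the unit in that gap was not tested. Nefh per Nefl was 0.478 ± 0.104 at P7 in counts, 0.302 ± 0.0741 at P7 in TPM and 1.21 ± 0.0458 at P22. Gap43 per Nefh was 0.415 ± 0.209 at P7 in counts, 0.416 ± 0.135 at P7 in TPM and 0.00279 ± 0.00104 at P22. As a share of all counts, the 3 neurofilament genes made up 0.110% ± 0.0421 at P7 and 0.792% ± 0.129 at P22.

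The share of Nefm differed between genotypes in each of the 3 sets of libraries, a comparison chosen after its values were seen and so given without a test. At P22 it was 33.4%, 32.9% and 33.5% in heterozygotes and 34.1%, 35% and 34.0% in homozygotes. In the P7 count libraries it was 39.1%, 37.2% and 34.9% against 43.1%, 45.7% and 40.3%, and in the TPM libraries 31.2%, 33.6%, 29.8% and 29.7% against 34.9%, 35.8%, 34.4% and 38.5%. Homozygous libraries were above heterozygous ones without overlap in all 3 sets, including the P7 sets in which the level of Nefm itself overlapped. The shares sum to a whole, and others moved too. The share of Nefh was lower in homozygotes without overlap at P22 (34.4% to 34.8% against 32.4% to 34.1%) and in the P7 count libraries (17.5% to 22.5% against 12.3% to 15.9%) and overlapped in TPM (11.8% to 14.1% against 11.2% to 16.7%). The share of Nefl in TPM was 47.9% to 50.5% against 39.0% to 47.8%, narrowly apart. That of Ina at P22 was 3.99% to 4.24% against 3.61% to 3.94%, also narrowly apart, and it overlapped in both P7 sets. Against Nefl alone, Nefm was at a ratio of 1.01 to 1.04 in heterozygotes and 1.11 to 1.30 in homozygotes in the P7 count libraries and at 0.587 to 0.694 against 0.731 to 0.916 in the TPM libraries, whereas at P22 the ratios overlapped (1.16 to 1.22 against 1.20 to 1.22). Estimated counts of Nefm, Nefh and Ina held fractions in all 12 count libraries and those of Nefl in 0. The part of this, and of the antisense overlap of Nefl and Nefm, in these shares was not tested.

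**Figure D5:**
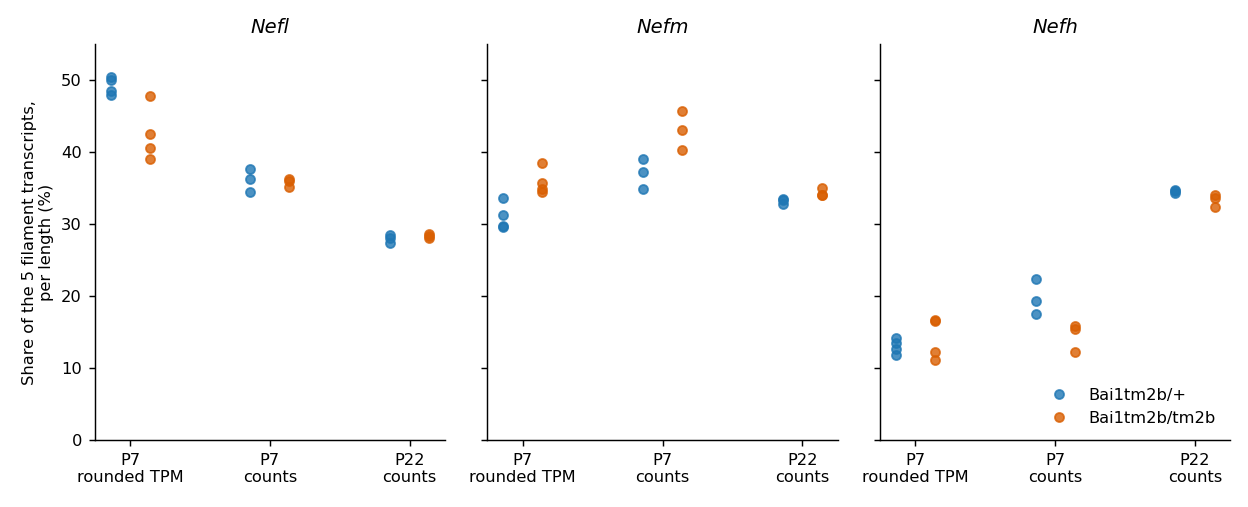
Share of Nefl, Nefm and Nefh in the summed per-length level of 5 filament genes in each library, for the P7 rounded TPM, P7 count and P22 count libraries, with Bai1tm2b/+ in blue and Bai1tm2b/tm2b in orange. The Nefh share is 32.4% to 34.8% at P22 and at most 22.5% at P7, and the orange Nefm points lie above the blue ones in each set.

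Pathway lists were also divided by age, where 25.9% of all 16314 genes were called higher at P22 and 28.7% lower. Of 13 axonal transport motor genes 12 were called higher at P22 and 0 lower (median 1.92), led by the kinesin light chains Klc2 (2.72) and Klc1 (2.42) and the dynein chain Dync1i1 (2.49). Of 9 membrane skeleton and initial segment genes 8 were higher and 0 lower (median 1.90), led by the beta-IV spectrin Sptbn4 (3.95), Ank1 (3.87) and Ank2 (2.41). Of 12 microtubule-associated proteins 7 were higher and 1 lower, led by Map1a, a protein of mature axons and dendrites, which rose from 280.4 ± 93.4 to 4464 ± 308 CPM in heterozygotes (4.04 over both genotypes), Map7d2 (2.96) and Map6 (2.11).

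Tubulins, growth cone genes and the relatives of Stmn2 and Dcx were mixed. Over all genes, too, calls went both ways, 25.9% higher and 28.7% lower, and the lists were not tested against these shares. Of 12 tubulin isotypes 5 were higher and 4 lower, with Tubb2b, an isotype of developing neurons, falling from 233 ± 32.5 to 29.2 ± 2.70 CPM in heterozygotes (-3.09 over both genotypes), Tuba1c lower (-1.36) and Tuba4a higher (2.19). Of 17 growth cone proteins 7 were higher and 7 lower, with Marcks at -2.79 and the axonal adhesion genes Cntn2 (3.45) and L1cam (2.0) higher. Of 7 relatives of stathmin and doublecortin 6 were higher and 1 lower, with Stmn3 at 2.69, Stmn4 at 2.28 and Dclk1, a relative of Dcx, at -1.34. Of 10 other intermediate filaments 2 were higher and 7 lower, with Synm at 2.29, the nuclear lamin Lmnb1 at -1.95 and the epithelial keratin Krt8 at -1.95. Of 10 axon regeneration genes tested 2 were higher, the transcription factors Atf3 (1.97) and Jun (1.63), and 2 lower, among them Sox4 (-2.82). The largest edgeR adjusted p among the list genes named for this shift was 0.000787, for Dclk1, whose P22 heterozygous libraries were spread widely (88.1 ± 74.1 CPM, SD, n = 3).

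Genes with the pattern most like that of Nefh and Dcx were ranked by Pearson's correlation of CPM among 11083 genes with a mean of at least 10 CPM over the 12 count libraries, as a description. Nearest to Nefh were Scn4b, Sgpp2, Syt2, Mapk8ip2 and Magee1, with r of 0.998 to 0.999, of which Scn4b, a sodium channel beta subunit, rose from a mean of 23.9 to 739 CPM. Nearest to Dcx were Basp1, Nsg2, Pkia, Mmd2 and Ttyh1, with r of 0.885 to 0.921, of which Basp1, encoding a growth cone membrane protein, went from 148 to 87.3 CPM. The 12 libraries fall into 2 clusters by age, run and table. Within the 6 P22 libraries, which share a genotype split, the nearest to Nefh were Cplx1, Sparcl1, Psmd1, Pitpna and Ube2o (r of 0.999) and to Dcx Far1, Ttc14, Tmem229a, Rbm24 and Ago4 (r of 0.984 to 0.999).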

How the data were processed

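Polyadenylated RNA was sequenced in 20 libraries, 6 at P22 and 14 at P7. Estimated counts per gene for P22 and for P7 replicates 5 to 7 were deposited by the authors, who used the nf-core pipeline with STAR, Salmon and mm10; versions, annotation and strand setting are not given in the sources used here. For P7 replicates 1 to 4 the deposited values are whole-number scores that sum to 999644 to 999777 per library and were taken as TPM rounded by the authors. The labels name P7 batches of 3 and 4 replicates, the sizes of these sets.

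Expected counts were rounded and tested with edgeR 4.0.16 (R 4.3.3) after TMM scaling and filterByExpr. Fits were P22 alone, P7 counts alone, and all 12 count libraries for age and its interaction with genotype. TPM libraries were tested with limma 3.58.1 on log2(TPM + 1) after TMM scaling. The design had been set for counts throughout, and the TPM set needed this other test. DESeq2 1.42.0, RLE scaling, other filters and pseudocounts, scaling to neuronal markers, a replicate block and omission of each library were tried. Each fit was tested on simulated data in which every gene had the same dispersion and libraries did not differ in cell content. Such differences between real pools were not covered. All 10 genes were named, and from each list the 3 called genes with the largest change. Genes and lists were chosen with earlier results of these data known. No libraries were identical. Same-numbered libraries did not deviate together, so numbers were not taken as pairs. Counting error is small at these depths for genes with high counts, and the number of pools limits precision. It is larger for scarce genes, such as Prph, with as few as 39 counts in a P7 library. Gap43 had as few as 78 counts in a P22 library.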

Additional observations from a re-analysis of the deposited data

Results flagged for a closer look

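In the P7 rounded TPM libraries, heterozygous replicate 1 was at 4 TPM for Dcx while the other 3 heterozygous libraries were at 3 TPM, so that it stood alone at the end of its group. The gap is 1 rounding step. Chance marks about 1 in 20 groups in this way, a rate that was not tested for values rounded this coarsely.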

How the results depend on the processing

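In the count libraries RLE scaling, DESeq2 and no filter on low counts left the number of calls among the 10 genes at 2 lower for P22, 0 for P7, and 8 higher and 1 lower with age, and the replicate block, which could be fitted for genotype alone, left it at 2 and 0. By adjusted p alone, 6 of the 10 genes passed at P22 with DESeq2 and 5 with edgeR. Of all genes given an adjusted p, 17% passed with DESeq2 and 12.3% with edgeR. Replicate numbers did not pair the libraries, as same-numbered libraries had correlated deviations of -0.02 to 0.03 at P22, -0.19 to 0.08 in the P7 counts and -0.23 to -0.01 in TPM. The replicate block gave 466 called genes at P22 against 487, and 0 in TPM against 94, with 0 in the P7 counts either way. Scaling to neuronal markers had the widest effect, moving the median of all genes to 0.25, 0.35, -0.29 and -2.75 for P22, P7 counts, P7 TPM and age. The share of calls that were higher went from 55.2% to 96.3% at P22, from 80.9% to 0.751% in TPM and from 47.5% to 1.20% with age. Without TMM, the TPM set had 292 calls, 96.9% of them higher, and a median of 0.12. Pseudocounts of 0.5 and 5 gave 108 and 49 calls in TPM and no filter gave 0, with 0 of the 10 genes called in each.

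On the neuronal scale, 1 gene was called higher and 0 lower at P22, and 1 higher and 5 lower with age. On the TMM scale, the age fit in the homozygous libraries alone gave 2 lower. Signs turned on the neuronal scale at P22 for Prph (0.12) and Tubb3 (0.023). In the P7 counts they turned for Nefm (0.16), Stmn2 (0.34) and Tubb3 (0.14). In TPM they turned for Nefl (-0.088), Gap43 (-0.10), Stmn2 (-0.16), Tubb3 (-0.082) and Map2 (-0.16). With age they turned for Ina (-0.25), Prph (-1.29), Stmn2 (-1.42), Tubb3 (-0.15) and Map2 (-0.87). The interaction turned for Nefl (-0.14), Ina (-0.19) and Tubb3 (-0.11), and for Ina also with RLE (-0.0047) and DESeq2 (-0.0051). All these lie within or beside the shift of the scale, and the cause was not tested.

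Without 1 library, calls lower at P22 ranged from 1 to 3, calls higher in TPM from 0 to 3 and calls lower with age from 1 to 2. At P22 Prph ranged from -0.29 to 0.10 and Map2 from -0.012 to 0.13. In the P7 counts Nefm ranged from -0.50 to 0.14, Stmn2 from -0.29 to 0.31 and Tubb3 from -0.48 to 0.079. The interaction ranged from -0.36 to 0.30 for Nefl, -0.56 to 0.10 for Nefm, -0.44 to 0.33 for Ina, -0.61 to 0.014 for Stmn2, -0.21 to 0.078 for Dcx and -0.28 to 0.29 for Tubb3. Depth is unknown in TPM, and 3 or 4 pools a group limit all comparisons.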
